A study of Saccharomyces cerevisiae with 14 samples.

Results

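The haploid-specific genes STE4, STE18, GPA1, STE5, FUS3, FAR1, AXL1, RME1, HO and NEJ1 were followed across 14 expression arrays of budding yeast whose histones H3 or H4 lacked their amino-terminal tails. They were chosen by name, as genes that the a1-alpha2 repressor is known to shut off, with earlier results of these data known. Every probe set annotated to one of them was used. This gave 12 probe sets for 10 genes, of 9275 probe sets and 5656 genes that a probe set names alone. FUS3 had 3 probe sets and every other gene had 1. In the H4 deletion strain (H4del, 3 arrays) residues 2 to 26 of histone H4 were missing, and the matching strain (H4WT, 3 arrays) had full-length H4. In the H3 deletion strain (H3del, 4 arrays) residues 1 to 28 of histone H3 were missing, and the matching strain (H3WT, 4 arrays) had full-length H3. The strains were described as congenic, with the H4 gene on a plasmid marked by TRP1 and the H3 gene on one marked by LEU2. Cells were taken in mid-log growth. The synthetic medium had no uracil for any strain, no leucine for the H3 strains and no tryptophan for the H4 strains.

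Yeast cells come in the haploid mating types a and alpha and in the a/alpha diploid. Haploid cells keep the genes needed to sense pheromone, to arrest the cycle, to switch mating type and to hold back meiosis. In a/alpha cells the proteins a1 and alpha2 bind DNA together and turn these genes off. In a haploid alpha cell the a1 gene lies only at the silent locus HMR, where the Sir proteins keep it off, and the tails of H3 and H4 are known to take part in that silencing. The labels do not give the mating type of the strains.

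The values are MAS5 signals, the summary of a probe set on an Affymetrix array, on a linear scale that the authors had already made comparable between arrays. An offset of 16.9, the 10th percentile over all arrays, was added before taking log2, so log2 fold changes of dim genes are understated. Tests are those of limma over 6492 probe sets bright enough to be tested, with Benjamini-Hochberg adjusted p-values and a threshold of 0.05. All 10 genes were tested, with 11 of their 12 probe sets. Arrays were hybridized on 5 days, and day 4 held replicate 3 of every group. Nothing in the labels says that the arrays of 1 group are separate cultures. The p-values therefore rest on a spread between arrays that may be technical, and 3 or 4 arrays in a group limit the precision. On the array, fewer cells expressing a gene and less RNA per cell cannot be told apart. Spearman correlations were between 0.968 and 0.992 within a group and not under 0.935 between groups. For actin the 3 prime to 5 prime signal ratio, which reflects RNA integrity, ranged from 1.54 to 1.99 in H4del against 1.48 to 1.82 in H4WT, and from 1.54 to 2.89 in H3del against 1.56 to 2.15 in H3WT. The same ratio for TBP, the TATA-binding protein, ranged from 3.21 to 4.68 in H4del against 2.68 to 3.20 in H4WT, without overlap, and from 3.84 to 4.94 in H3del against 1.30 to 4.20 in H3WT. The H3 ranges overlapped. For actin they did so only through the day 4 arrays, at 1.54 in H3del and 1.56 in H3WT. The other arrays had 2.61 to 2.89 in H3del against 1.94 to 2.15 in H3WT. In each group the day 4 array had the lowest actin ratio. The part of these ratios in the results below was not tested. OLI1, an ATP synthase gene carried on the mitochondrial genome, had signals of 1.1 to 4.0 in H4del against 1173.7 to 9736.8 in H4WT. In H3del it ranged from 1485.2 to 7071.2 against 1155.8 to 7716.9 in H3WT. Its part in the H4del results was not tested. The histone genes themselves do not check the labels, since it is not known here whether their probes fall inside the deleted stretch.

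All 10 genes fell in H4del against H4WT, where 9.67% of all tested probe sets fell. The log2 fold changes lay between -4.88 for FAR1 and -1.55 for AXL1, with a median of -2.99, against a median of -0.081 over all tested probe sets. No array of H4del reached an array of H4WT for any of the 10 genes, a separation in that direction seen for 19% of all tested probe sets. In H3del against H3WT the log2 fold changes of all 10 were below 0, with a median of -0.61 against 0.019 over all tested probe sets, and 2 of them, FAR1 and HO, passed the test, where 2.46% of tested probe sets fell. None of the 10 rose in either deletion.

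**Figure D1:**
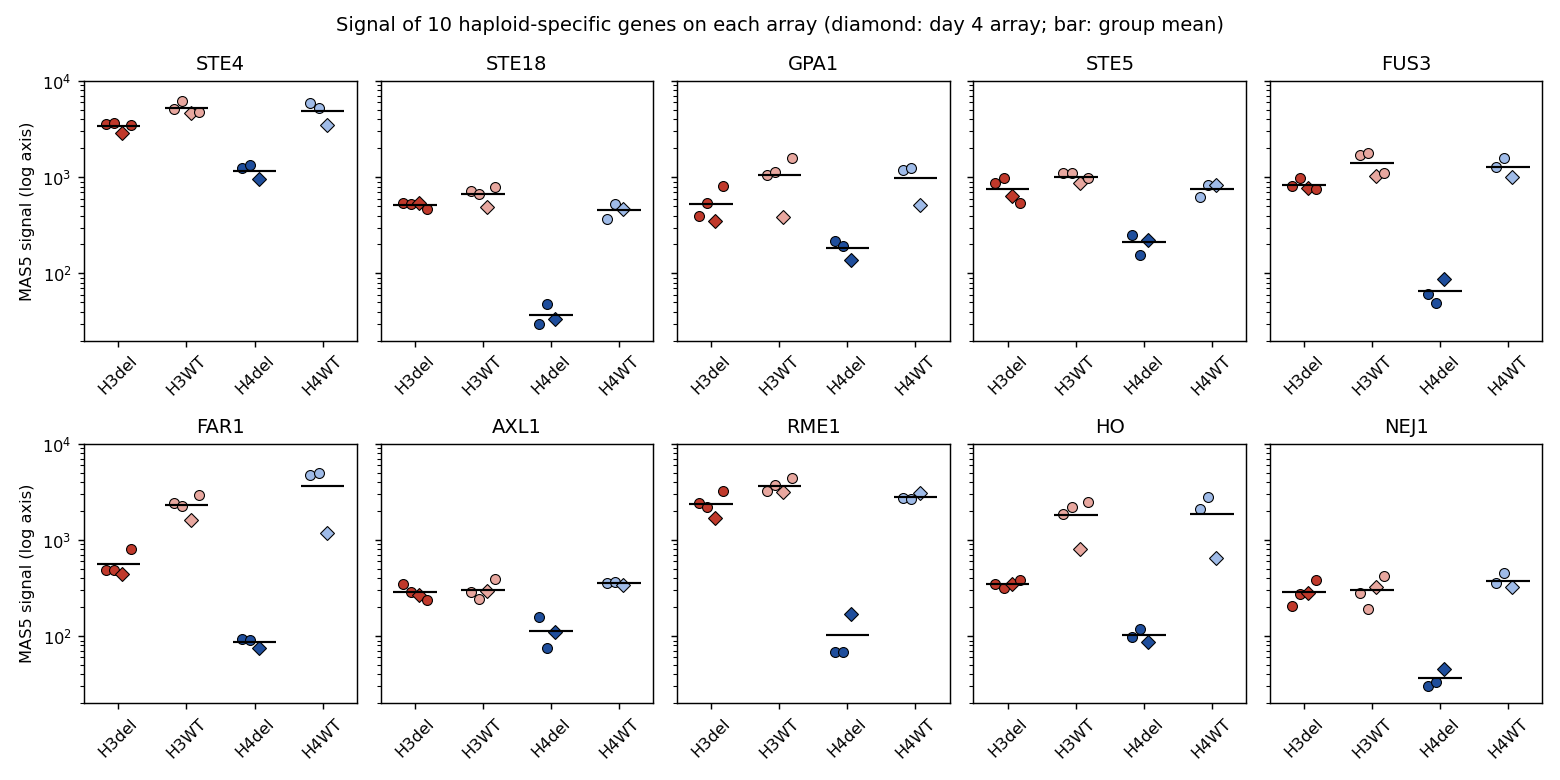
MAS5 signal (log axis) of the brightest probe set of each gene on each array of H3del, H3WT, H4del and H4WT. Points are arrays, diamonds mark the array of day 4 and bars are group means. In every panel the 3 H4del arrays lie below the 3 H4WT arrays. In STE4, FUS3, FAR1 and HO the 4 H3del arrays lie below the 4 H3WT arrays.

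The first group of genes forms the heterotrimeric G protein that couples the pheromone receptors to the cell. STE4 (YOR212W) encodes its beta subunit, which starts the mating signal together with the gamma subunit. Its signals were 1235.5, 1328.5 and 955.4 in H4del replicates 1 to 3, against 5906.9, 5222.3 and 3530.1 in H4WT. Every H4del array was thus below every H4WT array, and STE4 fell with a log2 fold change of -2.02 ± 0.21 (SE, adjusted p = 1.96e-05 in limma). In H3del STE4 had 3574.5, 3655.8, 2883.3 and 3529.0, against 5076.4, 6261.7, 4688.7 and 4710.7 in H3WT. These groups did not overlap either, but the log2 fold change of -0.60 ± 0.18 (SE) missed the threshold (adjusted p = 0.0591 in limma).

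STE18 (YJR086W) encodes the gamma subunit. Its signals were 30.1, 48.2 and 33.6 in H4del, against 364.2, 530.0 and 463.0 in H4WT. It fell by 3.11 ± 0.22 (SE) on the log2 scale (adjusted p = 3.24e-07 in limma), and its mean place among all signals of an array was the 12.9th percentile in H4del and the 49.9th in H4WT. In H3del it had 533.7, 523.6, 533.9 and 466.0, against 715.4, 663.4, 486.2 and 791.7 in H3WT. One H3WT array, that of day 4, lay among the H3del arrays, and the log2 fold change of -0.34 ± 0.19 (SE) did not pass (adjusted p = 0.360 in limma).

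GPA1 (YHR005C), the alpha subunit, holds the beta and gamma subunits inactive until pheromone binds the receptor. Its signals were 217.6, 195.1 and 139.2 in H4del, against 1188.2, 1247.4 and 512.3 in H4WT. It fell by 2.23 ± 0.45 (SE) on the log2 scale (adjusted p = 0.00467 in limma), with the least margin by p of the 10 genes. In H3del GPA1 had 399.7, 537.7, 351.6 and 813.2, against 1064.7, 1140.6, 382.0 and 1594.5 in H3WT. The groups overlapped, the day 4 array of H3WT being as low as the lower H3del arrays. The log2 fold change of -0.88 ± 0.39 (SE) did not pass (adjusted p = 0.224 in limma).

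STE5 (YDR103W) is the scaffold that gathers the kinases of the mating cascade. It had signals of 249.6, 155.7 and 224.8 in H4del, against 621.4, 836.3 and 829.9 in H4WT, and fell with a log2 fold change of -1.79 ± 0.24 (SE, adjusted p = 0.000237 in limma). Its signals were 877.6, 973.7, 639.7 and 546.0 in H3del, against 1107.4, 1101.2, 869.1 and 981.3 in H3WT. The 2 brightest H3del arrays reached into the range of H3WT, and the log2 fold change of -0.44 ± 0.21 (SE) did not pass (adjusted p = 0.254 in limma).

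FUS3 (YBL016W) is the mitogen-activated protein kinase at the end of the cascade. Its brightest probe set gave 61.0, 49.8 and 86.6 in H4del, against 1276.8, 1575.1 and 1002.9 in H4WT. The lowest H4WT array was still 11.6 times the highest H4del array, and FUS3 fell with a log2 fold change of -3.98 ± 0.26 (SE, adjusted p = 1.07e-07 in limma). A second FUS3 probe set gave 54.7, 2.3 and 59.5 in H4del, against 1054.6, 831.8 and 616.6 in H4WT, a log2 fold change of -4.14 ± 0.40 (SE). The third probe set had signals of 0.7 to 11.0 in the H4 strains and 3.3 to 14.6 in the H3 strains and was too dim to be tested. In H3del the brightest one gave 809.9, 973.2, 776.4 and 756.1, against 1714.6, 1797.0, 1030.7 and 1106.5 in H3WT. Here too the groups did not overlap, with a log2 fold change of -0.72 ± 0.22 (SE) that missed the threshold (adjusted p = 0.0613 in limma). The second probe set overlapped between H3del and H3WT, at -0.52 ± 0.35 (SE).

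FAR1 (YJL157C) stops the cell cycle in response to pheromone by inhibiting the G1 cyclin-dependent kinase, and also directs growth towards the mating partner. It had the largest log2 decrease of the 10 genes in H4del. Its signals were 94.1, 90.7 and 74.7 in H4del, against 4705.6, 4928.9 and 1174.4 in H4WT, so that the means differed 41.7-fold. The log2 fold change was -4.88 ± 0.42 (SE, adjusted p = 2.42e-06 in limma). The 3 H4del arrays were close together, whereas in H4WT the day 4 array was far below the other 2. In H3del FAR1 had 485.5, 490.4, 440.7 and 807.9, against 2414.0, 2267.5, 1607.1 and 2955.1 in H3WT. The groups were apart and FAR1 fell with a log2 fold change of -2.03 ± 0.36 (SE, adjusted p = 0.00200 in limma).

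HO (YDL227C) is the endonuclease that cuts the MAT locus to start a switch of mating type. Its signals were 98.7, 119.9 and 86.3 in H4del, against 2114.2, 2799.1 and 654.6 in H4WT, and it fell with a log2 fold change of -3.76 ± 0.44 (SE, adjusted p = 8.19e-05 in limma). In H3del it had 344.8, 319.7, 350.3 and 383.8, against 1842.9, 2186.3, 808.8 and 2467.5 in H3WT. Of the 10 genes HO had the largest log2 decrease in H3del, -2.22 ± 0.38 (SE, adjusted p = 0.00146 in limma). The 4 H3del arrays spanned a narrow range, and the wild-type arrays a wide one, with the day 4 array the lowest in both H3WT and H4WT.

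RME1 (YGR044C) is a transcription factor that represses IME1, the inducer of meiosis, and so keeps haploid cells out of meiosis. It had 68.9, 68.6 and 169.9 in H4del, against 2734.5, 2646.4 and 3041.8 in H4WT. The log2 fold change was -4.67 ± 0.29 (SE), with the smallest adjusted p of the 10 genes (7.9e-08 in limma). In H3del RME1 had 2409.4, 2211.8, 1700.9 and 3229.3, against 3199.1, 3723.0, 3186.8 and 4389.4 in H3WT. One H3del array reached the lower H3WT arrays, and the log2 fold change of -0.62 ± 0.25 (SE) did not pass (adjusted p = 0.167 in limma).

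AXL1 (YPR122W) encodes a protease that matures a-factor and also marks the axial budding sites of haploid cells. Its signals were 158.4, 74.5 and 110.2 in H4del, against 360.7, 364.6 and 340.1 in H4WT, a log2 fold change of -1.55 ± 0.25 (SE, adjusted p = 0.000994 in limma). This was the smallest decrease of the 10. In H3del it had 347.1, 285.2, 269.4 and 236.8, against 286.9, 246.2, 293.1 and 389.2 in H3WT, with full overlap and a log2 fold change of -0.083 ± 0.22 (SE, adjusted p = 0.880 in limma).

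NEJ1 (YLR265C) is needed for the joining of broken DNA ends in haploid cells. It had 30.5, 33.2 and 45.5 in H4del, against 352.9, 449.4 and 322.2 in H4WT, and fell with a log2 fold change of -2.87 ± 0.28 (SE, adjusted p = 1.01e-05 in limma). Its signals in H3del were 206.5, 276.6, 279.6 and 385.4, against 281.1, 192.4, 321.0 and 426.7 in H3WT. The H3 groups overlapped throughout, with a log2 fold change of -0.064 ± 0.24 (SE, adjusted p = 0.921 in limma). NEJ1 and AXL1 thus lay next to 0 in H3del while both fell in H4del.

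**Figure D2:**
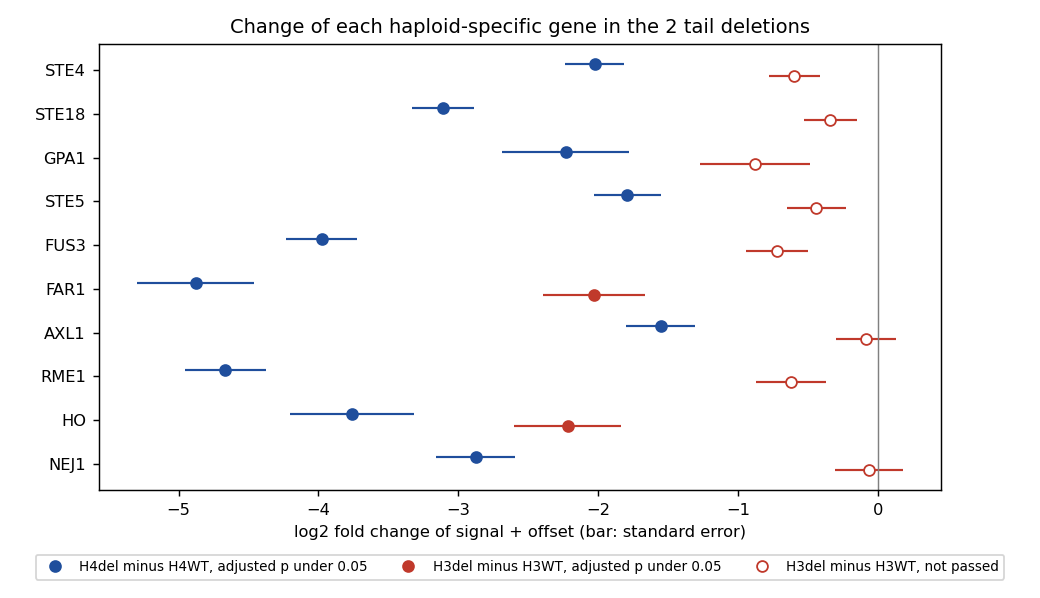
Log2 fold change of each gene in H4del against H4WT (blue) and in H3del against H3WT (red), with limma standard errors as bars. Filled points passed an adjusted p of 0.05. All 10 H4del values are filled, and FAR1 and HO are the filled H3del values.

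Set among all 6492 tested probe sets in order of log2 fold change, 4 of the 10 genes were among the 10 lowest in H4del, 7 among the 20 lowest and all 10 among the 50 lowest. FAR1 had rank 4, RME1 5, FUS3 9, HO 10, STE18 12, NEJ1 14, GPA1 19, STE4 23, STE5 29 and AXL1 43. In H3del HO had rank 5 and FAR1 rank 6, GPA1 was at 118 and FUS3 at 219, and NEJ1, the highest, at 2592. The 5th percentile of all tested probe sets in H3del was -0.61, and HO, FAR1, GPA1, FUS3 and RME1 lay below it.

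**Figure D3:**
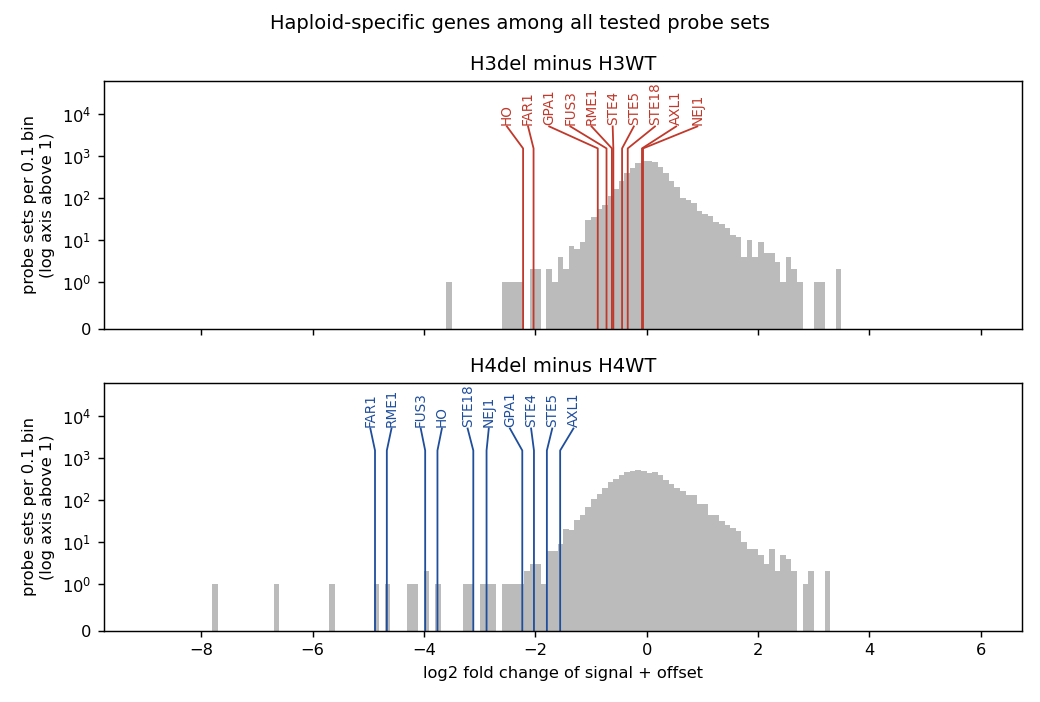
Number of tested probe sets per bin of log2 fold change (log axis above 1) in H3del minus H3WT and in H4del minus H4WT, with the place of each of the 10 genes marked by a line. In H4del the 10 genes lie between -4.88 and -1.55, and in H3del between -2.22 for HO and -0.064 for NEJ1.

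As a share of its log2 decrease in H4del, the value in H3del was 59.1% for HO, 41.6% for FAR1 and 39.3% for GPA1. It was 29.5% for STE4, 24.6% for STE5, 18.1% for FUS3, 13.4% for RME1 and 10.9% for STE18. The lowest shares were 5.36% for AXL1 and 2.24% for NEJ1. These shares are a description, and whether they differ between genes was not tested.

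The difference itself, the change in H4del minus the change in H3del, was tested in the same limma fit. It was below 0 for all 10 genes and passed for 8 of them, where 2.4% of tested probe sets passed in that direction. RME1 had the largest difference, -4.04 ± 0.38 (SE, adjusted p = 2.53e-05 in limma). FUS3 followed with -3.26 ± 0.34 (SE, adjusted p = 7.57e-05). FAR1 had -2.85 ± 0.56, NEJ1 -2.81 ± 0.37 and STE18 -2.77 ± 0.29 (SE). The 3 smallest differences that passed were AXL1 at -1.47 ± 0.33, STE4 at -1.43 ± 0.28 and STE5 at -1.35 ± 0.32 (SE). HO, at -1.54 ± 0.59 (adjusted p = 0.151), and GPA1, at -1.36 ± 0.60 (adjusted p = 0.220), did not pass in limma, and their wide errors do not show that they responded alike to both deletions. The calls of STE5 and AXL1 were lost when single arrays were left out, STE5 without H3del replicate 1 or 2, H4WT replicate 2 or H4del replicate 2, and AXL1 without H3del replicate 1, H4WT replicate 1 or 2 or H4del replicate 2.

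Arrays of the same number varied together, and with the replicate number as a block more genes passed in H3del. STE4 (adjusted p = 0.00663), GPA1 (0.0136), FUS3 (0.0283) and RME1 (0.0305) then fell beside FAR1 and HO, 6 of 10 genes, where 6.59% of tested probe sets fell in limma with that block. With the hybridization day as a block the same 6 genes fell, where 9.33% of tested probe sets fell, with adjusted p between 4.43e-05 for FAR1 and 0.0137 for RME1. STE18, STE5, AXL1 and NEJ1 passed with neither block (adjusted p from 0.0684 to 0.857). In the fit without a block 6 of the 10 genes had an unadjusted p under 0.05 in limma, as did 20.1% of all tested probe sets. The groups did not overlap for STE4, FUS3, FAR1 and HO, where 6.87% of tested probe sets were separated in that direction. In H4del all 10 genes fell with either block, where 18.8% of tested probe sets fell with the replicate number and 17.3% with the day. The test of the difference passed for all 10 genes with the replicate number as a block, where 10.3% of tested probe sets passed in that direction. GPA1 (adjusted p = 0.0165) and HO (0.0386) were then among them. With the day as a block it passed for 9, where 10.5% did, HO missing the threshold (adjusted p = 0.0554). In the fit with the day as a block H4WT replicate 2, alone on its day, does not enter the values.

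Within each day that held both groups, the direction of the H4del change was the same. On day 2 (2 H4del arrays, 1 H4WT array) and on day 4 (1 array each) all 10 genes were lower in H4del, with median log2 differences of -2.85 and -2.57. FAR1 had -5.43 on day 2 and -3.70 on day 4, and RME1 had -5.01 and -4.03. In the H3 strains 8 of 10 genes were lower in H3del on day 1 (2 arrays each), 9 on day 4 and 10 on day 5 (1 array each), with medians of -0.61, -0.42 and -0.71. HO had -2.54, -1.17 and -2.63 on these days, FAR1 -2.22, -1.83 and -1.85, and STE4 -0.64, -0.70 and -0.41. The difference of GPA1 was -1.22 on day 1, -0.11 on day 4 and -0.96 on day 5. AXL1 changed sign between days, at 0.23, -0.11 and -0.68.

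The day 4 array was the lowest of its group for 4 of 10 genes in H3del, against 8 of 10 in H3WT, where 42.3% and 38.8% of all tested probe sets had it lowest. It was the lowest for 4 of 10 genes in H4del, against 7 of 10 in H4WT, where 42.5% and 49.6% of tested probe sets had it lowest. The largest gaps were those of GPA1, HO and FAR1 in the wild types. On the log2 scale the day 4 array differed from the mean of the other arrays of its group by -0.65 for GPA1, 0.0071 for HO and -0.38 for FAR1 in H3del, against -1.66, -1.39 and -0.65 in H3WT. The same differences were -0.51, -0.29 and -0.25 in H4del, against -1.22, -1.87 and -2.02 in H4WT, where the 5th percentile over all tested probe sets was -1.10. RME1 in H4del was the other way, its day 4 array lying 1.12 above the others. The part of the day in these values was not tested beyond the fits with a block. Without the 4 arrays of day 4, a choice made after seeing the data, all 10 genes still fell in H4del, where 15.9% of tested probe sets fell, and 5 of 10 fell in H3del, where 3.62% of tested probe sets fell. Without H3WT replicate 3 alone 4 genes fell in H3del, where 2.16% of tested probe sets fell.

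**Figure D4:**
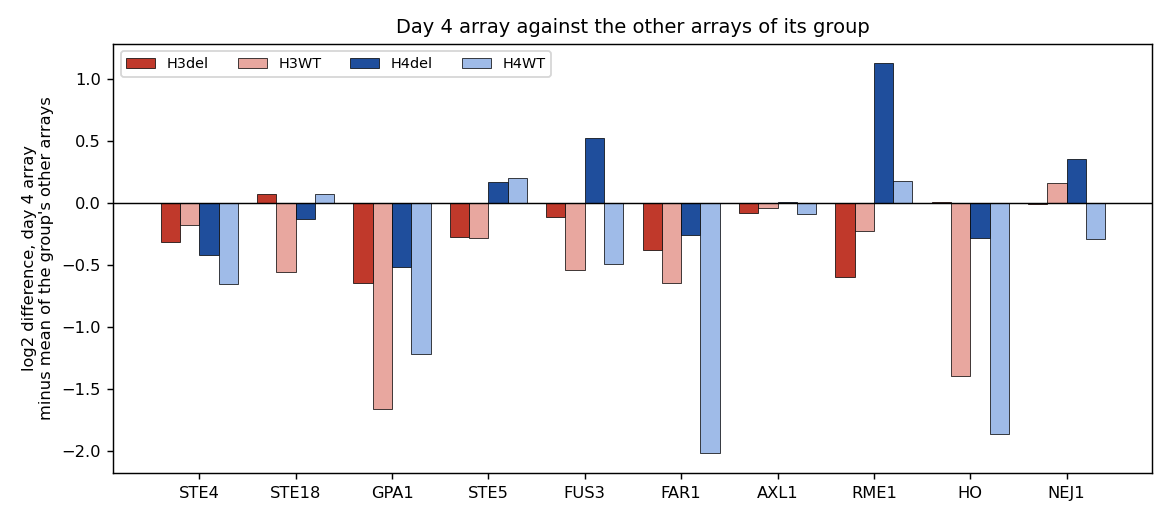
Log2 signal of the array of day 4 minus the mean of the other arrays of its group, as 1 bar for each gene in H3del, H3WT, H4del and H4WT. The longest bars below 0 are those of FAR1 (-2.02) and HO (-1.87) in H4WT and GPA1 (-1.66) in H3WT, and the longest above 0 is that of RME1 in H4del (1.12).

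The wild types, H3WT and H4WT, differed in plasmid marker and medium, and mostly in hybridization day. H3WT was hybridized on days 1, 4 and 5 and H4WT on days 2, 3 and 4. Plasmid, medium and day cannot be fully told apart here, and day 4 alone links the wild types in the fit with a day block. None of the 10 genes passed between them in limma (adjusted p from 0.210 to 0.987), where 3.4% of tested probe sets passed in either direction, and none passed with a replicate block (7.87% of tested probe sets) or a day block (3.8%). At an unadjusted p under 0.05 there was 1, STE18, where 16.1% of tested probe sets were. STE18 had the largest value, 0.53 ± 0.21 (SE) higher in H3WT on the log2 scale. FAR1 had -0.41 ± 0.39 (SE), and without H4WT replicate 3 this became -1.09 (adjusted p = 0.0294 in limma), where 2.96% of tested probe sets were lower. Without the arrays of day 4 it was -0.92 (adjusted p = 0.0233), where 5.39% were lower. STE5 and RME1 were higher on every H3WT array than on any H4WT array, as were 7.78% of tested probe sets, with log2 differences of 0.41 ± 0.23 and 0.36 ± 0.27 (SE).

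The a1 subunit of the repressor was read from the probe sets annotated to HMRA1, the copy of the a1 gene at HMR. As the labels do not give the mating type, the array alone does not show which locus a signal came from. The brightest of its 3 probe sets gave 861.9, 935.1 and 475.6 in H4del, against 39.0, 6.1 and 52.8 in H4WT. In H3del it gave 25.0, 20.7, 29.7 and 46.4, against 26.7, 7.6, 18.1 and 16.3 in H3WT. All 3 H4del arrays were thus far above every other array. The probe set was too dim over all arrays to enter the main test, and in the limma fit without that filter it rose in H4del with a log2 fold change of 4.06 ± 0.38 (SE, adjusted p = 1.54e-05). In H3del the value was 0.48 ± 0.33 (SE, adjusted p = 0.503), and the difference between both deletions was 3.58 (adjusted p = 0.00151 in limma). The other 2 probe sets of HMRA1 had log2 fold changes of 1.13 and 1.96 in H4del.

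The genes for alpha1 and alpha2 lie both at MAT and at the silent locus HML, so their probe sets cannot tell the copies apart. Both probe sets for alpha1, the activator of alpha-specific genes, fell in H4del with log2 fold changes of -1.35 (adjusted p = 0.00279) and -1.13 (adjusted p = 0.00685 in limma). In H3del they had -0.67 and -0.46 and did not pass. Between the wild types the first was higher in H3WT (1.05, adjusted p = 0.0189 in limma), where 3.4% of tested probe sets passed. The second, at 0.67, did not pass. Both probe sets for alpha2, which also match HMRA2, had log2 fold changes of 0.0011 and 0.080 in H4del, and -0.42 and -0.77 in H3del, and passed in neither.

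**Figure D5:**
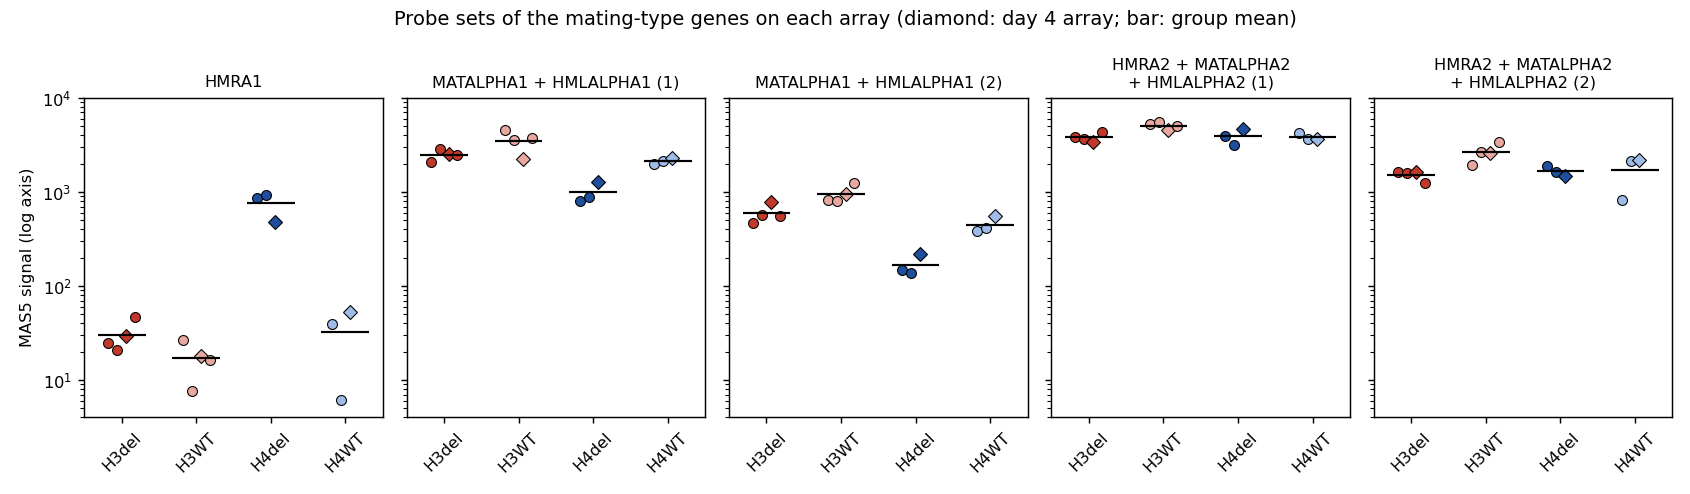
MAS5 signal (log axis) of probe sets for a1, alpha1 and alpha2 on each array of H3del, H3WT, H4del and H4WT. For HMRA1 the 3 H4del arrays lie at 475.6 to 935.1 and all other arrays at 6.1 to 52.8.

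Markers of the cell types moved too. The alpha-specific genes MF(ALPHA)1, MF(ALPHA)2, STE3 and SAG1 encode alpha-factor, the a-factor receptor and alpha-agglutinin. Their summed signal was 2627.5 to 3101.8 in H4del against 32497.8 to 37224 in H4WT. All 4 fell in H4del, where 9.67% of tested probe sets fell. The sum was 17066.1 to 21311.4 in H3del against 28577.1 to 35577.8 in H3WT, and 3 of 4 fell, where 2.46% of tested probe sets fell. Most of it was MF(ALPHA)1, with mean signals of 16792.9 in H3del and 19747.2 in H3WT. MF(ALPHA)2 had log2 fold changes of -3.55 ± 0.21 in H3del and -4.24 ± 0.24 in H4del (SE). STE3 had -2.40 ± 0.18 and -2.92 ± 0.21, and SAG1 -2.47 ± 0.17 and -2.57 ± 0.20 (SE). MF(ALPHA)1, with -0.24 ± 0.13 (SE) in H3del, was the exception. All 6 a-specific markers had a probe set and 4 were tested. The sum of all 6 was 1080.1 to 1263 in H4del against 903.6 to 1021.6 in H4WT, and 971.9 to 1442.8 in H3del against 578.6 to 857.2 in H3WT. MFA1, an a-factor gene, was higher in H4del, where 7.79% of tested probe sets were higher. STE6, the a-factor exporter, was higher in H3del, where 5.21% were higher. In the limma fit without the filter on dim probe sets AGA2 was higher in H3del (0.77 ± 0.19, SE, adjusted p = 0.0191). AGA2 did not pass there in H4del, and STE2 passed in neither deletion. With the day as a block 3 of the 4 tested were higher in H3del (MFA1, STE6 and BAR1), where 11.3% of tested probe sets were higher. In H4del MFA1 was then higher and BAR1, the protease that degrades alpha-factor, lower. With that block 12.5% of tested probe sets were higher and 17.3% lower in H4del. The call of STE6 in H3del was lost with quantile scaling, with an offset of 1 and without any 1 of the H3del arrays or of H3WT replicates 1 to 3, and that of MFA1 in H4del without H4WT replicate 1 or 2 or H4del replicate 1 or 3. The 6 meiotic markers summed to 1397.6 to 1492.1 in H4del against 779 to 833.4 in H4WT, and to 1099.1 to 1449.1 in H3del against 613.1 to 732.3 in H3WT. Different genes of the 5 tested passed in each deletion, where 7.79% of tested probe sets rose in H4del and 5.21% in H3del. Of 5 tested, SPO11, which makes the meiotic double-strand breaks, rose in H4del at 2.20 ± 0.21 and had -0.099 ± 0.19 in H3del (SE). SPS1 and SPS2, genes of spore formation, rose in H3del at 1.71 ± 0.21 and 2.46 ± 0.26 and had 0.50 ± 0.25 and 0.57 ± 0.30 in H4del (SE). These 3 genes also passed between H3WT and H4WT, where 3.4% of tested probe sets passed, with SPO11 higher in H3WT (1.95) and SPS1 (-1.10) and SPS2 (-1.91) lower. SPO13, too dim for the main test, rose in both deletions in the limma fit without that filter. It had 1.18 ± 0.22 in H3del (SE, adjusted p = 0.00263) and 0.96 ± 0.25 in H4del (SE, adjusted p = 0.0182 in limma). The part of these shifts in the values of the haploid-specific genes was not tested.

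Of 5 further genes described as haploid-specific or tied to mating, 4 fell in each deletion, where 9.67% of tested probe sets fell in H4del and 2.46% in H3del, with median log2 fold changes of -1.76 in H4del and -0.94 in H3del. STE12, the transcription factor of the mating response, had -1.29 ± 0.24 in H4del and -0.94 ± 0.20 in H3del (SE). SST2, which turns off the G protein signal, had -1.96 ± 0.39 and -1.53 ± 0.34, and TEC1, a partner of STE12 in filamentous growth, -1.76 ± 0.28 and -1.24 ± 0.24 (SE). For none of these 3 did the difference between the deletions pass (adjusted p from 0.450 to 0.673 in limma). RDH54, a DNA repair protein, fell in H4del at -2.13 ± 0.22 and had 0.35 ± 0.19 in H3del (SE), and here the difference passed (-2.47, adjusted p = 0.000224 in limma). HOG1, the osmotic stress kinase, fell in H3del, at -0.51 ± 0.14 (SE), a call lost without any 1 of the H3del arrays or of H3WT replicates 1 to 3, and had 0.14 ± 0.16 (SE) in H4del.

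Other genes of the same pathways were counted in the same way. Of all tested probe sets, 9.67% fell and 7.79% rose in H4del, and 2.46% fell and 5.21% rose in H3del. Of 16 tested genes of the pheromone chain outside the set, 5 fell and 0 rose in H4del (STE3, STE12, DIG1, CDC24 and SST2), and 4 fell and 1 rose in H3del (STE3, STE12, SST2 and AKR1 lower, STE11 higher). Of 15 silencing genes, ORC1 and SAS5 fell and SAS4 rose in H4del, and SAS4 rose in H3del. Of 10 tested regulators of HO none passed in either deletion. Among 7 tested genes acting with RME1 and 5 acting with FAR1, the cyclin gene CLN2 fell in H4del (-1.10 ± 0.31, SE) and none passed in H3del. IME4, listed with RME1 but too dim for the main test, rose in both deletions in the limma fit without that filter. It had 1.35 ± 0.23 in H4del (SE, adjusted p = 0.00202) and 0.82 ± 0.20 in H3del (SE, adjusted p = 0.0204 in limma). IME4 also differed between the wild types, lower in H3WT at -1.02 ± 0.22 (SE, adjusted p = 0.0181 in limma). Its mean signals were 45.5 in H3del, 19.3 in H3WT, 165.7 in H4del and 56.0 in H4WT. Of 6 tested genes of end joining acting with NEJ1, XRS2 rose and MRE11 fell in H4del, and none passed in H3del. Of 19 genes of a-factor production and bud site choice acting with AXL1, 4 fell and 1 rose in H4del, and 1 fell and 1 rose in H3del. TUP1, CYC8 and MCM1, which encode the corepressor and a partner of alpha2, passed in neither deletion without a block. Between the wild types TUP1 was higher in H3WT, at 0.98 ± 0.25 (SE, adjusted p = 0.0403 in limma), where 3.4% of tested probe sets passed. Its mean signals were 1340.3 in H3del, 1615.3 in H3WT, 1443.3 in H4del and 802.3 in H4WT. With the day as a block MCM1 fell in H3del (adjusted p = 0.00706) and TUP1 rose in H4del (adjusted p = 0.0468 in limma). Of the genes acting with RME1, NEJ1 and FAR1, RIM15 (adjusted p = 0.0107), XRS2 (0.00828) and RAD50 (0.0304) then rose and CLN1 (0.0154) fell in H3del. Of the regulators of HO, 1 then rose and 1 fell in H4del. Of the 16 tested genes of the pheromone chain, 8 then fell and 0 rose in H4del, and 7 fell and 1 rose in H3del. Of the 15 silencing genes, 3 then fell and 1 rose in H4del. In H3del RAP1 and ABF1 then fell, and SIR2 and SAS4 rose. Of the 19 genes acting with AXL1, 7 then fell and 1 rose in H4del, and 4 fell and 3 rose in H3del. With that block 12.5% of tested probe sets rose and 17.3% fell in H4del, and 11.3% rose and 9.33% fell in H3del. Several of these calls were lost when 1 array was left out. Over all probe sets 1134 passed in H4del, but 580 to 669 without H4WT replicate 1 or 2 or H4del replicate 1 or 2. CLN2, MRE11, ORC1 and SAS5 did not pass in H4del without H4WT replicate 1 or without H4WT replicate 2, nor CDC24 without H4WT replicate 2, and CLN2 and SAS5 were also lost without H4del replicate 1 or 3 and SAS5 without H4del replicate 2. STE11 did not pass in H3del without H3del replicate 1, 2 or 4 or H3WT replicate 2.

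All 10 genes were lowest on the 3 H4del arrays, so a correlation over all 14 arrays largely restates the falls given above. In H3del their log2 fold changes were unlike, from -2.22 for HO to -0.064 for NEJ1. Pearson's r over 14 arrays between each gene and the mean of the other 9 ran from 0.886 for GPA1 to 0.978 for FUS3, a description of arrays that share strains and days. Of 5419 other tested probe sets that name 1 gene, 63 had an r over 0.9 with the mean of the 10, and 3 had one over 0.95. These were OSW7 (0.959), FRS2 (0.958) and MF(ALPHA)1 (0.956), followed by RRP42, YGL193C, MIX14, MED2, NIT2, BET1 and DLT1 down to 0.938. Over the H3 arrays alone r for these named genes ran from 0.195 for YGL193C to 0.912 for RRP42. Over the H4 arrays alone it ran from 0.938 for BET1 to 0.995 for MIX14. The mean of the 10 is lowest on the H4del arrays, so genes chosen for likeness to it had to be low there, and their values are given as a description. In H4del the log2 fold change was -3.98 ± 0.15 for MF(ALPHA)1, -1.38 ± 0.18 for YGL193C and -1.21 ± 0.19 for OSW7 (SE). In H3del it was -0.24 ± 0.13, 0.043 ± 0.16 and -0.17 ± 0.17 for these genes (SE).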

How the data were processed

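RNA of 14 samples was read on Affymetrix YG_S98 arrays. The authors deposited MAS5 signals, linear intensity values per probe set, per the submitters' processing notes; no version of MAS5 is given. Trimmed mean signals lay between 1500.83 and 1501.18, so no further scaling was applied. From the deposited intensity, log2(signal + 16.9) was computed and limma 3.58.1 in R 4.3.3 (lmFit, eBayes with trend, 10 residual degrees of freedom) was fitted to all 4 groups. Of 9275 probe sets, without 60 controls, the 6492 with a mean above the 30th percentile were tested. Benjamini-Hochberg adjustment ran over all of these. Genes came from GEO's platform annotation, which gave 1 gene for 6504 probe sets, several for 328 and none for 2443, and a gene is given by its brightest probe set. Same-numbered arrays deviated together in every pair (correlations from 0.263 to 0.638), most of them hybridized on the same day, so fits with the replicate number as a block were made beside the main ones, as were fits with the day. Named genes were all 10 members, the companion list genes that passed, and the 10 genes most like the members' mean. The members and lists were chosen with earlier results of these data known. Figures used Python 3.11.15 and matplotlib 3.10.9. Alternatives changed the offset, the filter, the scaling, the choice of probe set, the arrays fitted and the blocks.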

Additional observations from a re-analysis of the deposited data

Results flagged for a closer look

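Among the 24 groups of 4 arrays tested for a single distant array by Dixon's ratio, 3 were past the critical value, all in H3del, where chance gives about 1 in 20. STE4 had a ratio of 0.836, with replicate 3 low at 2883.3. STE18 had 0.848, with replicate 4 low at 466.0. FAR1 had 0.865, with replicate 4 high at 807.9. The change in H4del differed from the change in H3del, by limma's test of the difference, for 8 genes. On the log2 scale the differences were -1.43 for STE4, -2.77 for STE18, -1.35 for STE5, -3.26 for FUS3, -2.85 for FAR1, -1.47 for AXL1, -4.04 for RME1 and -2.81 for NEJ1.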

How the results depend on the processing

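All 10 genes fell in H4del under each of the alternatives that tested all 10, and 7 of 7 with the filter at the median. Their adjusted p in limma stayed at or under 0.0252 (GPA1). In H3del 2 genes fell, and 4 with quantile scaling, 6 with a replicate block, 6 with a day block, 5 without the arrays of day 4 and 2 to 4 when 1 array was left out. The difference between the deletions passed for 8 genes, for 5 of 7 with the filter at the median and for 6 to 9 when 1 array was left out. Between wild types 0 passed, 1 without the arrays of day 4, and 0 to 1 when 1 array was left out. Quantile scaling moved the share of lower calls among all differences to 51.9%, against 65.3%. Fitting the compared groups alone gives no separate fit for the difference, which uses all 4 groups.

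Some values changed sign, and none of these passed in the main fit or in the setting where the sign changed. Between wild types GPA1 had -0.018 with quantile scaling, -0.22 with a replicate block, -0.22 with a day block, -0.04, -0.07 and -0.23 without H3WT replicates 1, 2 and 4, and -0.38 without H4WT replicate 3. HO had -0.015 with a replicate block, -0.03 and -0.08 without H3WT replicates 2 and 4, -0.52 without H4WT replicate 3 and -0.18 without day 4. FUS3 had -0.049 with a day block, -0.15 as a mean of probe sets, -0.01 without H3WT replicate 2 and -0.050 without H4WT replicate 3. With a day block FAR1 had 0.054, against -0.41 in the main fit, and RME1 -0.35, against 0.36. FAR1 passed at -1.09 without H4WT replicate 3 and at -0.92 without day 4 (adjusted p = 0.0294 and 0.0233 in limma). STE4 had -0.11 without H4WT replicate 3 and -0.065 without day 4. In H3del NEJ1 had 0.07 without H3del replicate 1 and 0.11 without H3WT replicate 4, and AXL1 0.036 without H3WT replicate 4. When 1 array was left out the highest values between wild types were 0.26 for STE4, 0.44 for GPA1, 0.27 for FUS3 and 0.51 for HO, and the lowest for NEJ1 in H3del was -0.25. The cause was not tested.

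Over all probe sets the number past the threshold in H3del was 498, 250 with the filter at the median, 1047 with a replicate block, 1338 with a day block and 330 without H3del replicate 1. In H4del it was 1134, 610 with only the compared groups fitted, 2130 with a replicate block, 1933 with a day block, 1751 without day 4 and 580 to 669 without H4WT replicate 1 or 2 or H4del replicate 1 or 2. For the difference it was 239, 368 with quantile scaling, 1056 with a replicate block, 1078 with a day block, 744 without day 4 and 117 to 466 when 1 array was left out, the highest without H4WT replicate 3. Between wild types it was 221, 135 with the filter at the median, 108 with only the compared groups fitted, 511 with a replicate block, 666 without day 4, and 137 and 138 without H4WT replicates 1 and 2. The choice to leave out day 4 was made after seeing the data. Dim values, near the offset in H4del, bound how large a fold change can be read.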
